A study of Homo sapiens with 2 samples.

Results

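The ABC transporter family was examined in the human oral cancer line SAS, an established culture line, with 1 RNA sequencing library per group. ABC genes were taken by name, as every gene whose symbol is ABC followed by a subfamily letter from A to G and a number. This gave 36 genes of 24124 in the deposited table, with 344 of its 134092 transcripts. GENCODE release 29 annotates 46 such names, and the other 10 were not analysed here. The control cells stably carried the plasmid pLKO.AS2.neo, and the ASC cells carried pLKO.AS2.neo.ASC, which adds the inflammasome adaptor ASC. Both were kept in DMEM with 10% FBS, G418 at 200 μg/ml and puromycin at 2 μg/ml. The labels do not say which promoter drives ASC or whether the cells are clones or pools. The comparison asks how the level of each ABC gene differs when ASC is added to these cells.

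ABC proteins share an ATP-binding cassette that binds and hydrolyses ATP. Members of subfamilies A, B, C, D and G also have membrane-spanning domains and move lipids, peptides, metabolites, conjugates or drugs across membranes. ABCE1 and the ABCF proteins have no membrane domain and act on the ribosome and in translation. In carcinoma cells the family is best known for drug efflux through ABCB1, ABCC1 and ABCG2.

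The ASC library held 31426491 listed reads and the control library 31289581. PYCARD, the gene of ASC, stood at 266.5 RPKM in ASC cells and 1.36 RPKM in control cells, so its level matches the labels. All 8 squamous and simple epithelial markers checked, such as KRT5, KRT8 and TP63, stood at 46.0 RPKM or more in both libraries, with sums of 3398 against 2660 RPKM. They did not move together, since 6 had a log2 ratio above 0, with KRT8 at 1136 against 763.0 RPKM, and 2 below 0, KRT5 at 311.0 against 421.0 RPKM and TP63 at 46.0 against 54.5 RPKM. Markers of fibroblasts (6 in the table) and leukocytes (3 in the table) were all under 1 RPKM, and their summed levels were 0.696 and 0.740 RPKM in the ASC library against 0.346 and 0.565 RPKM in the control library. PTPRC, the pan-leukocyte marker, had 1 read in ASC cells and 0 in control cells. Of 4 endothelial markers 1 passed 1 RPKM, CDH5 at 2.23 against 1.23 RPKM. The part of these marker differences in the ABC values was not tested. Since RNA was taken from whole cultures, fewer cells of a type and less RNA per cell cannot be told apart.

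In each pair of values below the ASC library comes first and the control library follows. RPKM scales reads to both transcript length and sequencing depth, and was summed over the transcripts of a gene. A gene was compared if it reached 1 RPKM in either library, and the log2 ratio of levels has a pseudocount of 1 RPKM, which understates differences of low genes. Each ratio of reads is scaled to the listed reads of the library and has a 95% exact (Clopper-Pearson) binomial interval that covers counting error only. With 1 library per group there was no replicate check and no test between conditions, so no spread between cultures stands behind any difference.

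Of the 36 ABC genes, 25 reached 1 RPKM in either library. Among these 25, ABCA5 alone was higher by 2-fold or more in ASC cells on the log2(RPKM + 1) scale, and no member was lower by that much. Over all 12471 compared genes 0.617% were 2-fold higher and 0.265% were 2-fold lower. At 1.5-fold, ABCA5 and ABCA1 were higher and no member was lower, where 2.38% of all compared genes were higher and 1.81% lower. The other 23 lay within 1.5-fold. Log2 ratios were above 0 for 11 members and below 0 for 14, against 48% below 0 over all compared genes. The family median was -0.06 and that of all compared genes 0.01. The sign of the family median depended on the scale, since reads scaled to depth (CPM) gave 0.01 with 14 of 27 members above 0.

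**Figure D1:**
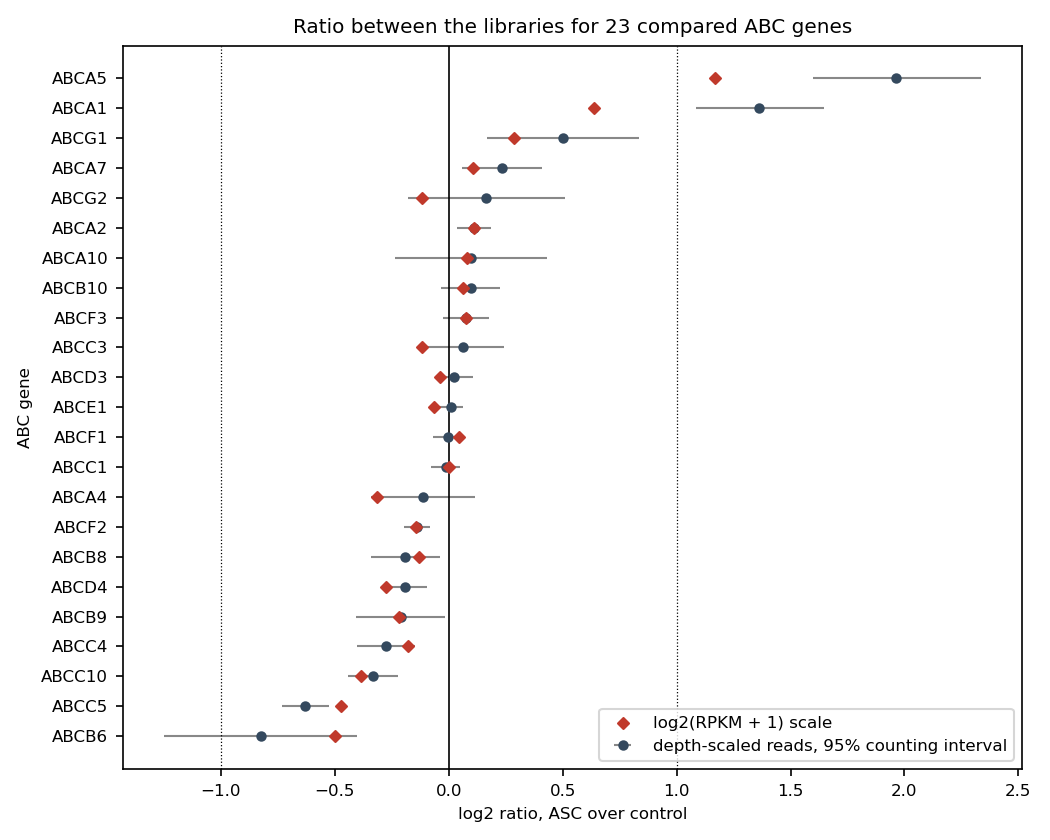
Log2 ratio of the ASC over the control library (horizontal axis) for 23 of the 25 compared ABC genes (vertical axis). Circles are ratios of depth-scaled reads with 95% counting intervals, diamonds are ratios of RPKM with a pseudocount of 1, and dotted lines mark 2-fold. ABCA5 and ABCA1 lie apart on the right, and ABCC5 and ABCB6 have the lowest ratios.

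Summed over members, the family stood at 317.1 RPKM in ASC cells and 335.7 RPKM in control cells. The 4 genes without membrane domains, ABCE1 and ABCF1 to ABCF3, held 51.8% of the family's RPKM in ASC cells and 50.5% in control cells. Subfamily C followed the ABCF genes and ABCE1 with 45.7 against 53.6 RPKM, the largest difference between sums over the subfamilies. Subfamily D stood at 45.0 against 50.8 RPKM and subfamily B at 33.1 against 36.8 RPKM. Subfamily A, the lipid transporters, was higher in the ASC library at 26.3 against 22.5 RPKM, and subfamily G was the lowest at 2.77 against 2.48 RPKM. These sums weight abundant genes most, and the medians of member log2 ratios were 0.11 for A, -0.15 for B, -0.18 for C, -0.04 for D, 0.04 for F and 0.08 for G.

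**Figure D2:**
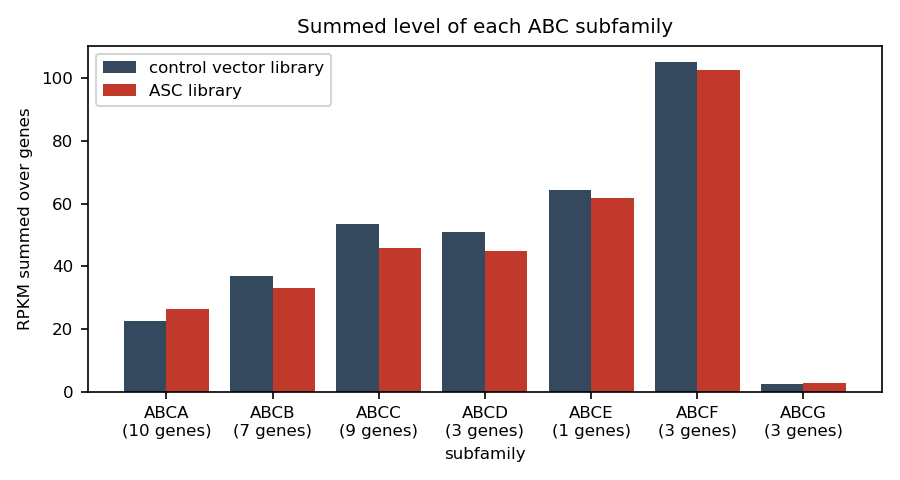
RPKM summed over the genes of each ABC subfamily (vertical axis, linear from 0) in the control and ASC libraries, with the number of listed genes under each name. ABCF and ABCE1 hold 51.8% and 50.5% of the family's total in the ASC and control libraries, and A and G are the only subfamilies with the higher sum in the ASC library.

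The order of levels was almost the same in both libraries. The 8 most abundant members kept their rank: ABCE1, ABCF2, ABCF1, ABCD4, ABCF3, ABCD3, ABCC1 and ABCA2, from 61.7 and 64.4 RPKM for ABCE1 to 14.4 and 13.2 RPKM for ABCA2. ABCF3 and ABCD3, next to each other in this order, were at 20.2 and 19.99 RPKM in the control library, a gap smaller than the difference of ABCF3 between libraries. Among compared members the ranks that moved most were those of ABCA5, which was 18th in ASC cells and 25th in control cells, and ABCB6, which was 22nd and 18th.

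**Figure D3:**
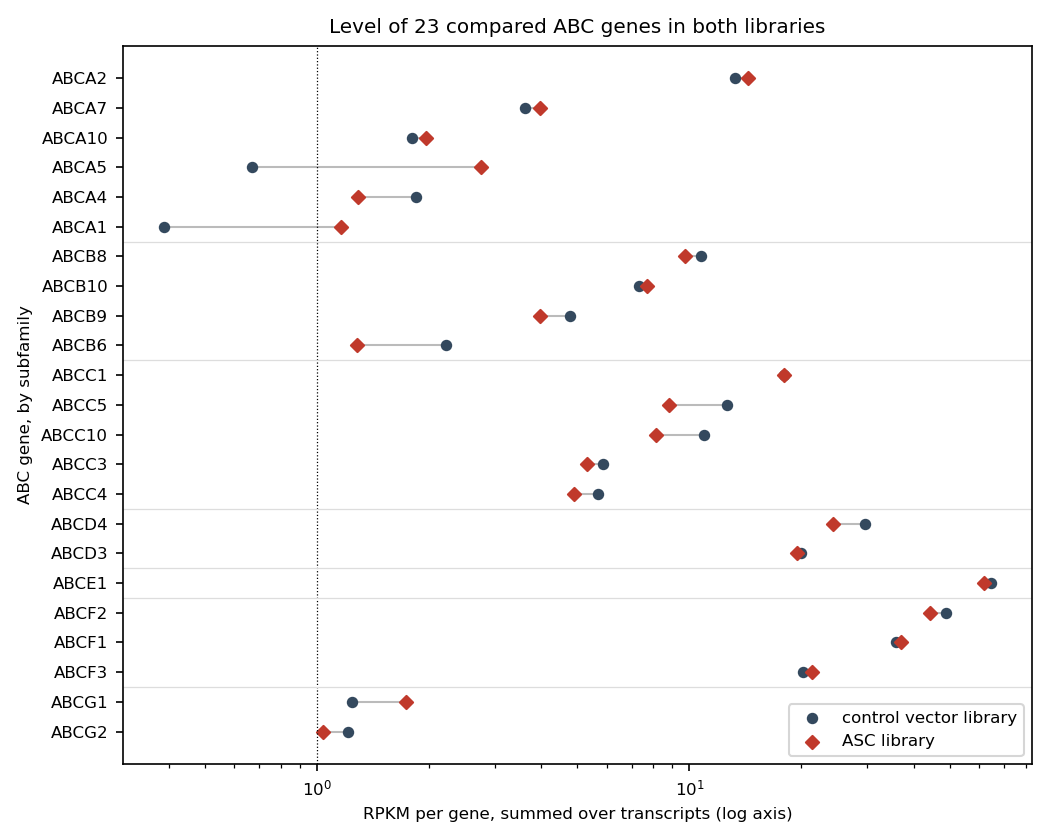
Level of 23 of the 25 compared ABC genes in RPKM (horizontal log axis) in the control (circles) and ASC (diamonds) libraries, grouped by subfamily A to G. The dotted line marks 1 RPKM. ABCA5 and ABCA1 cross that line between the libraries, and most other pairs nearly coincide.

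The promoters of the 4 members with the largest ratios of reads are shown because 2 of these genes were higher and 2 lower in the ASC library. Sequences are from RefSeq (GRCh38.p14), run 5′ to 3′ on the gene's strand, and cover 250 bases before the annotated start and 50 from it. All 4 genes are on the minus strand, with ABCA1 at chr9:104928106-104928405, ABCA5 at chr17:69327084-69327383, ABCB6 at chr2:219218909-219219208 and ABCC5 at chr3:184017835-184018134. Capitals mark matches, on either strand, to an E-box (CACGTG), a GC box (GGGCGG), the core of an antioxidant response element (TGACNNNGC) or a TATA box (TATAAA); the DR4 direct repeat bound by liver X receptors was searched too.
ABCA1: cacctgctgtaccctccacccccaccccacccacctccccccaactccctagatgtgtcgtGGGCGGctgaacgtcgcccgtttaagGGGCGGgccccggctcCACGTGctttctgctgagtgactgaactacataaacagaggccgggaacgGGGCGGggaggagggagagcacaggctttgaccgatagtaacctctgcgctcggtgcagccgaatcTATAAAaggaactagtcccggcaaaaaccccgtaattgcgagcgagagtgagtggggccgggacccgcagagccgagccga
ABCA5: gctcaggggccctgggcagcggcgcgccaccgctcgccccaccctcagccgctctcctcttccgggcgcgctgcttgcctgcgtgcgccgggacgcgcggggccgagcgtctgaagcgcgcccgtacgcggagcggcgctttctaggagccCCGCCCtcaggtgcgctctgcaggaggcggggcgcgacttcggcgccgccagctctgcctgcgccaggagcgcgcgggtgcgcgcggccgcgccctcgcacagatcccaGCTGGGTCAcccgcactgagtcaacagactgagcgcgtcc
ABCB6: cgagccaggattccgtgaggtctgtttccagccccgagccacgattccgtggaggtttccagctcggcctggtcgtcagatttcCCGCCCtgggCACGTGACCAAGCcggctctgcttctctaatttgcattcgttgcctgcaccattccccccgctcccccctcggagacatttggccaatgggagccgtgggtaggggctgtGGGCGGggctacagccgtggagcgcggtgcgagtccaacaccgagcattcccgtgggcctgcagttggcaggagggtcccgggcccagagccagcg
ABCC5: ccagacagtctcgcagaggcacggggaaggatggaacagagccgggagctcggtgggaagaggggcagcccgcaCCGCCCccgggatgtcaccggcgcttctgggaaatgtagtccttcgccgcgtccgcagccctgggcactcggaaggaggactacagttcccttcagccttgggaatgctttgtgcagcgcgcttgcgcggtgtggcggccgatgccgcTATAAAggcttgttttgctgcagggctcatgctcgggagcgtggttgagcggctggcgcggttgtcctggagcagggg
ABCA1 had 3 GC boxes, an E-box 147 bases before the start and a TATA box 31 bases before it. ABCC5 had 1 GC box and a TATA box 28 bases before the start. ABCB6 had 2 GC boxes and an E-box that shares 2 bases with an antioxidant response core. Transcripts starting within 150 bases of this ABCB6 start held only 14.8% against 0.355% of its reads. The one that starts there, ENST00000265316.7, had 11.1 against 0.469 reads. These are reads assigned to annotated models, and use of this start was not measured. ABCA5 had 1 GC box and an antioxidant response core after the start. Of all 35116 promoter entries, 7.26% held the E-box, 45.0% the GC box, 13.3% the antioxidant core, 11.5% the TATA box and 0.0199% the exact DR4 repeat, which was in none of the 4. Of the 25 compared members 19 had an entry, and their 28 entries held these motifs in 7, 19, 9, 4 and 0 cases. The DR4 search took only the exact repeat, held by 7 of all entries, so repeats with mismatches were missed. Its absence therefore does not show that a window lacks a liver X receptor site. The matches are letters in these windows and not shown to be sites.

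ABCA1, which loads cholesterol and phospholipid onto apolipoproteins at the cell surface, had 377 reads in ASC cells and 146 in control cells. Its level was 1.16 against 0.389 RPKM, 2.98-fold higher in plain RPKM, with a log2 ratio of 0.64 on the scale with the pseudocount. The log2 ratio of reads was 1.36 (95% interval 1.08 to 1.65). ABCA1 (ENSG00000165029.15) spans chromosome 9 bases 104781002 to 104928237 (hg38, minus strand). It passed 2-fold with a pseudocount of 0.1, with TMM scaling and with CPM, where its log2 ratio was between 1.20 and 1.36, and it was within 1.5-fold at 0.29 with a pseudocount of 3. ENST00000374736.7, whose start lies 82 bases before the RefSeq start, held nearly all reads, 369.7 against 146. ENST00000423487.6 and ENST00000374733.1 had reads in the ASC library only, 4.25 and 3.04.

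ABCG1, a transporter that passes cholesterol to lipoprotein particles, stood at 1.73 against 1.24 RPKM, with 186 against 131 reads. Its log2 ratio of levels was 0.29 and that of reads 0.50 (95% interval 0.17 to 0.83). ABCA7, a phospholipid transporter, stood at 3.98 against 3.63 RPKM, with 583 against 494 reads. Of 7 cholesterol and phospholipid exporters in the table, these 3 were compared, and ABCA1 passed 1.5-fold. ABCA1 reached 1 RPKM through the ASC library alone, so it entered the comparison because it was higher there, and the same holds for ABCA5. Of the exporters left out, ABCA3 of lung surfactant stood at 0.732 against 0.816 RPKM, ABCA12 had 15 against 18 reads, and ABCB4 and ABCG4 had at most 2 reads in either library.

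ABCA5, a transporter of late endosomes and lysosomes, had 309 reads in ASC cells and 79 in control cells. Its level was 2.75 against 0.670 RPKM, 4.11-fold higher in plain RPKM, and its log2 ratio of 1.17 was the highest in the family. The log2 ratio of reads was 1.96 (95% interval 1.60 to 2.34). ABCA5 (ENSG00000154265.15) spans chromosome 17 bases 69244311 to 69327244 (hg38, minus strand), with ABCA10 downstream on the same strand and overlapping it in annotated exons. ABCA10 stood at 1.97 against 1.80 RPKM. The 2-fold call of ABCA5 was lost with a pseudocount of 3, where its log2 ratio was 0.65, and with protein-coding transcripts only, where it was 0.86. Its highest single transcript did not reach 1 RPKM in either library.

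The higher level of ABCA5 was not held by 1 transcript alone. Its 14 listed transcripts divide 1 gene total, so their directions are not separate observations. ENST00000586995.5, annotated as a target of nonsense-mediated decay, had 92.1 against 15.7 reads, and the protein-coding ENST00000588877.5 had 81.3 against 27.5. The protein-coding ENST00000593153.5 and ENST00000586811.1 had 47.8 against 12.1 and 41.8 against 11.4 reads. Transcripts that start within 150 bases of the RefSeq start held 22.5% of ABCA5 reads in ASC cells and 21.0% in control cells. Most assigned reads thus belong to transcript models that begin elsewhere than the promoter shown above. Where the RNA itself began was not measured.

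The other lysosomal members were closer in the 2 libraries or lower with ASC. ABCA2, of the endolysosomal membrane, stood at 14.4 against 13.2 RPKM. ABCD4, which takes part in lysosomal release of cobalamin, was at 24.3 against 29.7 RPKM. Its reads were 1611.7 against 1834.2, a log2 ratio of reads of -0.19 (95% interval -0.29 to -0.10). On protein-coding transcripts alone the ABCD4 log2 ratio of levels was -0.07, where the sum over all transcripts gave -0.28. ABCB9, a lysosomal peptide transporter, stood at 3.97 against 4.78 RPKM. ABCB6, linked to porphyrin transport, had 74.8 against 132.4 reads and stood at 1.28 against 2.22 RPKM, 1.73-fold lower in plain RPKM. Its log2 ratio of reads was -0.82 (95% interval -1.25 to -0.40), the lowest among compared members. Of the 5 lysosomal genes, 2 were above 0 and 3 below.

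ABCB6 reads were assigned mostly to transcripts that retain an intron, which held 77.4% of them in ASC cells and 85.6% in control cells. Protein-coding transcripts of ABCB6 had 16.9 reads in ASC cells and 14.9 in control cells, and were under 1 RPKM in both. The retained-intron models had 57.9 against 113.4 reads. ABCB6 (ENSG00000115657.13) spans chromosome 2 bases 219209766 to 219219017 (minus strand). Its exons overlap an unnamed locus of the same strand, and ATG9A, the next compared gene, stood at 16.8 against 19.8 RPKM. The library kit does not mark strand, and the part of shared reads in the values was not tested. ABCA5, ABCA10, ABCB8, ABCB9, ABCC10, ABCD4, ABCE1 and ABCF2 also overlap another gene's exons, and their values carry the same uncertainty.

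Drug efflux genes were level or lower in the ASC library on the RPKM scale. Over all compared genes 48% were below 0, with a median of 0.01. Of 9 efflux genes in the table, 6 were compared, with 1 above 0 and 5 below, a median of -0.15 and none past 1.5-fold. Among these 5, ABCC3 and ABCG2 had log2 ratios of reads above 0, at 0.06 and 0.16, with counting intervals that include 0. ABCC1, which exports glutathione conjugates and many drugs, was the most abundant and stood at 18.0 against 17.9 RPKM, with 3998.9 against 4021.0 reads. Its log2 ratio of reads was -0.01 (95% interval -0.08 to 0.05), so the 2 libraries were not distinguishable by counting error. ABCC5, an exporter of cyclic nucleotides and nucleotide analogues, had 1253 against 1930 reads and stood at 8.79 against 12.6 RPKM. It was 1.43-fold lower in plain RPKM, with a log2 ratio of reads of -0.63 (95% interval -0.73 to -0.53). On the CPM scale ABCC5 passed 1.5-fold, with a log2 ratio of -0.62, as did ABCB6 with -0.63.

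ABCC5 (ENSG00000114770.16) spans chromosome 3 bases 183919934 to 184018015 (minus strand). Of its 8 transcripts with at least 3 reads in either library, 6 were lower in the ASC library and 2 higher. Among the higher, ENST00000392579.6 passed that minimum through the ASC library alone, with 13.5 against 0.783 reads. The leading ENST00000427120.6 held 43.6% of ABCC5 reads in each library, with 546.1 against 842.0 reads. The coding transcript ENST00000334444.10, which spans the gene, had 379.8 against 503.4 reads.

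ABCC10, a further multidrug resistance protein, was at 8.14 against 10.9 RPKM. Its reads were 1237 against 1552, a log2 ratio of reads of -0.33 (95% interval -0.44 to -0.22), and its exons overlap those of DLK2 on the other strand. ABCC4, which exports cyclic nucleotides and prostaglandins, stood at 4.90 against 5.67 RPKM, with 930 against 1121 reads. ABCC3, an exporter of glucuronides and bile salts, stood at 5.32 against 5.86 RPKM although its reads were 527 against 502, so the direction of ABCC3 differs between RPKM and reads. ABCG2, the breast cancer resistance protein, reached only 1.04 against 1.21 RPKM while its reads were 152 against 135, and its direction differs in the same way. ABCB1, which encodes P-glycoprotein, had 0 reads in ASC cells and 1 in control cells, at or under the 3 reads that a count of 0 allows. ABCC2 had 42 against 35 reads at 0.222 against 0.266 RPKM, and ABCC11 had 4 against 1 reads.

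Mitochondrial transporters were close. ABCB8 stood at 9.72 against 10.7 RPKM and ABCB10, tied to haem synthesis, at 7.69 against 7.31 RPKM. Both lay within 1.5-fold. In peroxisomes, ABCD3 of the membrane stood at 19.5 against 19.99 RPKM with 2442.0 against 2391.0 reads.

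Genes acting on ribosomes and in translation held the first 3 ranks of level. ABCE1, which splits ribosomes after termination, was at 61.7 against 64.4 RPKM. It had 6291.6 against 6220.3 reads and a log2 ratio of reads of 0.01 (95% interval -0.04 to 0.06). ABCF1, a partner of translation initiation, stood at 37.1 against 35.9 RPKM and ABCF3 at 21.3 against 20.2 RPKM. ABCF2 stood at 44.2 against 48.98 RPKM with 4661.0 against 5112.1 reads, a log2 ratio of reads of -0.14 (95% interval -0.20 to -0.08). The leading ABCF2 transcript ENST00000287844.6 had 3605.7 against 3803.5 reads. ENST00000222388.6, which runs past the annotated end of ABCF2, had 976.9 against 1200.4. All 4 genes lay within 1.5-fold, with 2 above 0 and 2 below.

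ABCA4, the retinoid transporter of photoreceptors, stood at 1.29 against 1.85 RPKM while its reads were 311 against 335. The remaining listed members did not reach 1 RPKM in either library, 11 genes in all. Among them ABCC6 had 19.5 against 18.0 reads, and its reads can be shared with the near-identical pseudogenes ABCC6P1 and ABCC6P2. ABCA13 had 3 against 8 reads, ABCC12 had 2 in each library, and ABCA9 had 1 against 0.

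Genes that act with ABC proteins were taken from lists chosen together with the members. For each list, the values over all compared genes are 48% below 0 and a median of 0.01. At 1.5-fold they are 2.38% higher and 1.81% lower. The family members under other names TAP1 and TAP2, which form the antigen peptide transporter, stood at 15.9 against 11.6 and 33.3 against 28.5 RPKM. Their chaperone genes TAPBP and TAPBPL, which have no ATP-binding cassette, stood at 19.1 against 13.97 and 6.09 against 6.54 RPKM. Of these 4 genes 3 were above 0 and none passed 1.5-fold. CFTR, also a family member, had 1 read in ASC cells and 0 in control cells. Of 12 sterol sensing genes, 3 were above 0 and 9 below, with a median of -0.09 and none past 1.5-fold. NR1H3, which encodes liver X receptor alpha, stood at 3.97 against 5.38 RPKM. NR1H2, which encodes liver X receptor beta, went the other way at 22.0 against 19.4 RPKM. APOE, the apolipoprotein E gene and like ABCA1 and ABCG1 a known liver X receptor target, stood at 7.16 against 4.81 RPKM. The other known targets SREBF1 and MYLIP stood at 48.3 against 52.5 and 4.99 against 5.33 RPKM, and the counting intervals of their ratios of reads include 0.

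Of 11 compared glutathione genes, 2 were above 0 and 9 below, with a median of -0.26. Over all compared genes 48% were below 0, with a median of 0.01. GSTM3, a glutathione transferase, stood at 6.72 against 10.2 RPKM, and the cystine transporter gene SLC7A11 at 22.5 against 31.6 RPKM. GSR, glutathione reductase, went the other way at 29.7 against 20.8 RPKM. Of 10 peroxisome and fatty acid oxidation genes, 7 were above 0, and CPT1A alone passed 1.5-fold, at 11.7 against 5.98 RPKM and a log2 ratio of 0.86. CPT1A encodes the mitochondrial carnitine acyltransferase and not a peroxisomal protein. PEX5 and HSD17B4 had log2 ratios of 0.18 and -0.15.

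The lists for mitochondria, ribosomes and transcription factors held no gene past 1.5-fold. Of 12 iron-sulfur and haem genes, 7 were above 0, with a median of 0.06, and GLRX5, ALAS1 and SLC25A38 had log2 ratios of 0.38, 0.33 and 0.31. Of 12 translation and ribosome recycling genes, 8 were above 0, with a median of 0.13. EIF6, an anti-association factor of the large ribosomal subunit, stood at 191.4 against 139.8 RPKM, and EIF2S2 and ETF1 had log2 ratios of 0.37 and 0.22. Of 7 regulators of drug transporter genes, 4 were above 0, with HIF1A at 137.7 against 112.4 RPKM and ARNT at 3.50 against 4.34 RPKM.

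Transcript shares were compared for the 23 members with at least 100 reads in each library and at least 2 transcripts. A change of at least 10 percentage points in any transcript was seen in 3 of 23, ABCC3, ABCG1 and ABCB9, where 15.5% of 10451 genes under the same minimum had one. The median largest change was 4.35 points for members and 4.004 points for all genes. The leading transcript was the same in both libraries for 22 of the 23, and 6.79% of all genes had different ones. Neither share was far from that of all genes. Intervals of shares are exact binomial at 95% and leave out error in assigning reads to similar transcripts.

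ABCC3 was the member with different leading transcripts. ENST00000502426.5, annotated as a decay target, held 39.4% of ABCC3 reads (95% interval 35.3 to 43.8) in ASC cells and 18.6% (15.2 to 22.2) in control cells, or 207.8 against 93.2 reads. ENST00000505699.5, a second decay target with the same ends, held 9.64% against 20.9%. The coding transcript ENST00000285238.12, which reaches the annotated gene end, held 3.44% against 10.1%, or 18.1 against 50.8 reads. The short coding transcript ENST00000427699.5 led in the control library with 23.7% and held 26.6% in the ASC library. All decay targets of ABCC3 together held 49.4% of ABCC3 reads in ASC cells and 43.6% in control cells, and its coding transcripts 30.5% against 34.3%.

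ABCG1 and ABCB9 had smaller changes. In ABCG1, ENST00000347800.6 held 2.30% (95% interval 0.589 to 5.41) in ASC cells and 15.2% (9.58 to 22.6) in control cells, or 4.27 against 19.9 reads. ENST00000361802.6 and ENST00000398449.7, which share the start at 42219118 on chromosome 21, had more reads in the ASC library, 101.7 against 58.4 and 54.5 against 25.4. In ABCB9, ENST00000280560.12 held 45.8% (41.0 to 50.8) against 35.3% (30.9 to 39.6).

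**Figure D4:**
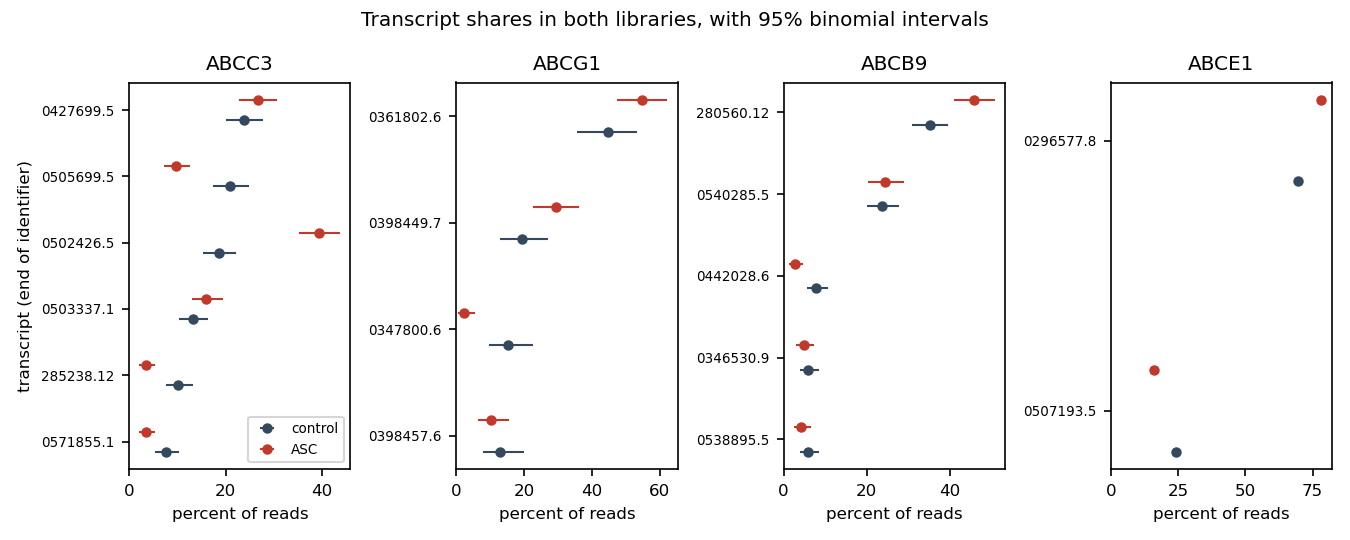
Percent of a gene's reads (horizontal axis) held by each transcript of at least 5% in either library (vertical axis) for ABCC3, ABCG1, ABCB9 and ABCE1, in the control and ASC libraries. Bars are 95% exact binomial intervals. In ABCC3 the transcript drawn with the largest change is at 39.4% in ASC cells and 18.6% in control cells.

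Some members had few reads on coding models. On protein-coding transcripts lay a median of 94.1% of member reads in ASC cells and 93.3% in control cells, against 95.8% in each over all 9897 protein-coding genes of the same minimum. In 13 of 23 members this share was over 90% in both libraries, which was not counted over all genes. In 3 of the 23 members, ABCA10, ABCC3 and ABCD4, it was under 50% in both, against 4.99% of all genes. ABCD4 had 14.6% against 14.03% of its reads on coding transcripts, with 56.6% against 52.6% on decay targets. ABCA10 had 1.26% against 2.03%, and its leading model ENST00000519732.5 has no annotated coding sequence. Most reads of ABCD4 and ABCA10 thus lay on models not annotated as coding.

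The coding share changed by at least 5 points in 3 of the 23 members, ABCE1, ABCB8 and ABCA2, against 11.9% of all genes. ABCE1 had 81.3% (95% interval 80.3 to 82.3) in ASC cells and 73.0% (71.9 to 74.1) in control cells. The decay target ENST00000507193.5 held 16.1% against 24.2%, with 1014.2 against 1502.2 reads, while the coding ENST00000296577.8 had 4907.3 against 4320.3 reads. On the coding transcripts alone the ABCE1 log2 ratio was 0.13, where the sum over all transcripts gave -0.06. ABCB8 went the same way, with decay targets at 12.0% against 19.1%. ABCA2 went the other way, with decay targets at 19.8% (18.4 to 21.3) against 12.4% (11.2 to 13.7).

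**Figure D5:**
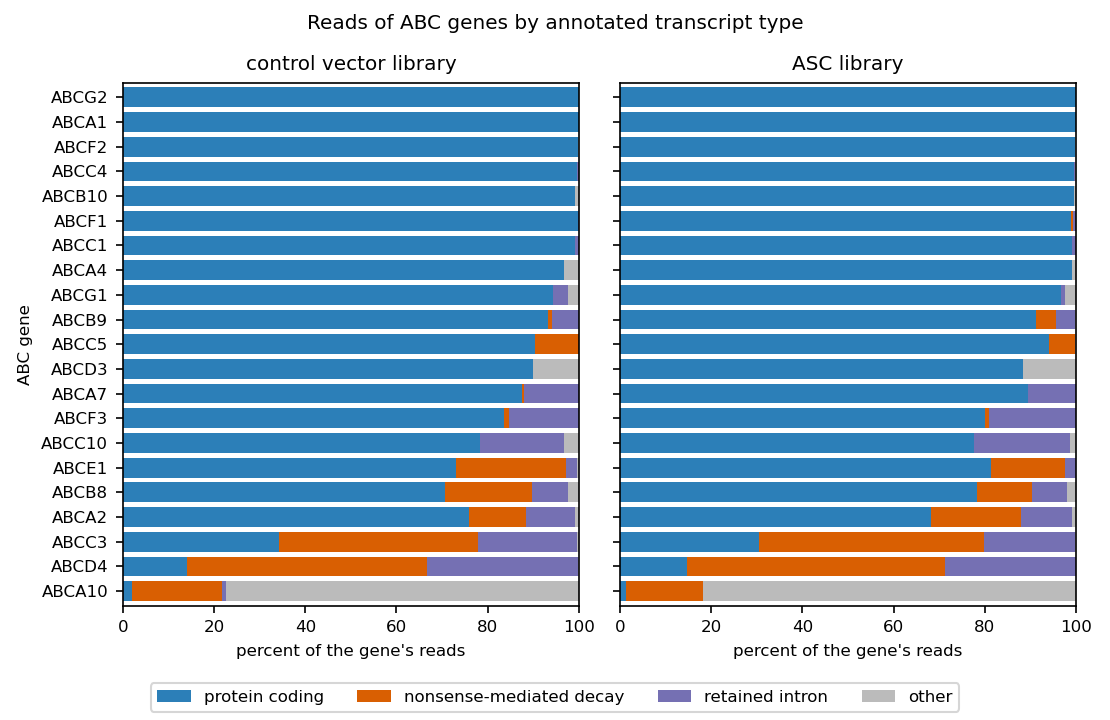
Percent of each gene's reads (horizontal axis) on protein-coding, nonsense-mediated decay, retained-intron and other transcripts for 21 of the 23 ABC genes (vertical axis), in the control and ASC libraries. ABCA10, ABCD4 and ABCC3 have under 50% on coding transcripts in both libraries, and ABCE1 shows a larger coding part in the ASC library.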

How the data were processed

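RNA of 2 SAS samples, 1 per group, was measured with poly(A) libraries that do not mark strand, per the labels' protocols. The authors' deposited table gives, per the file headers, reads and RPKM per transcript in each library. The deposited reads are partly fractional and were taken as estimated counts. The submitters' processing notes name hg38, while aligner and quantifier are not stated in the sources used. Gene names turned into dates (285 lines) were restored through the transcript identifier. Transcript types are those of GENCODE release 29, matched without version numbers (99.9% matched).

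RPKM and reads were summed per gene, and those reaching 1 RPKM in at least 1 library were compared with a pseudocount of 1. Reads were rounded for intervals. The depth was 31426491 and 31289581 listed reads, and intervals and the limit of 3 reads cover counting error only. Each group has 1 library, so no test was run. The calculation was tested on simulated data with 200 changed genes. Alternatives were pseudocounts of 0.1 and 3, no filter, a filter at 5 RPKM, median centring, CPM, TMM scaling (edgeR 4.0.16 in R 4.3.3) and the highest transcript. For shares they were a minimum of 300 reads, a call at 20 points and shares of RPKM. Protein-coding transcripts only was chosen after seeing the data. Named are members of at least 5 RPKM, past 1.5-fold, with the largest absolute ratio of a subfamily or with a 10-point share change, and up to 3 genes per partner list. Other members and NR1H2, SREBF1, MYLIP, CFTR and TAPBPL were named after their values were seen. A few genes that enter the counts and sums are not reported here by name. The members and lists were chosen with earlier results of these data known. Python 3.11.15, pandas 2.3.3, numpy 2.4.6 and scipy 1.17.1 were used.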

Additional observations from a re-analysis of the deposited data

How the results depend on the processing

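The number of ABC members higher by 2-fold or more in ASC cells, 1 as reported, was 2 with a pseudocount of 0.1, with TMM scaling and with CPM, the added gene being ABCA1, where 1.28%, 0.894% and 0.894% of all genes were. It was 0 with a pseudocount of 3, with only genes of 5 RPKM or more, with each gene's highest transcript and with protein-coding transcripts only. There 0.273%, 0.669%, 0.691% and 0.649% of all genes were 2-fold higher. At 1.5-fold higher, reported as 2, the number was 1 with a pseudocount of 3. It was 0 with the 5 RPKM minimum, which leaves out ABCA1 and ABCA5, and with each gene's highest transcript. Under these 3 settings 1.19%, 2.06% and 3.13% of all genes were higher by that much. At 1.5-fold lower, reported as 0, it was 1 (ABCB6) with a pseudocount of 0.1 and 2 (ABCB6 and ABCC5) with TMM scaling and with CPM, where 4.02%, 3.01% and 3.07% of all genes were lower by that much. No member was 2-fold lower under any of the 9 alternatives, where from 0.0722% (pseudocount of 3) to 1.02% (pseudocount of 0.1) of all genes were. The number with a transcript share change of at least 10 points was reported as 3. It was 1 (ABCC3) at 20 points, where 2.68% of all genes had such a change. With shares of RPKM it was 7, where 21.9% of all genes had one. The family median ranged from -0.12 at the 5 RPKM minimum to 0.03 for the highest transcript, and was 0.01 with TMM scaling or CPM. Of 170 recomputed log2 ratios of 20 named members, 144 moved by less than their counting margin and 26 by more. That margin runs from the centre to an edge of the counting interval of the member's ratio of reads. No call of at least 1.5-fold changed sign. No paired analysis was possible because each group has 1 library. Depth limits ABCA5, ABCA1, ABCB6 and ABCG1, with 74.8 to 377 reads per library, and likewise ABCG2 and ABCA10, with 135 to 159.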

Other observations

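The genes around the 4 members with the largest ratios of reads were looked at on the same scale. The 10 nearest compared genes, 5 on each side, had a median log2 ratio of 0.20 around ABCA5, between -0.41 and 0.64, where ABCA5 had 1.17. The next compared gene in chromosome order was ABCA10 on one side and SOX9, a transcription factor gene, on the other. Genes under 1 RPKM in both libraries were passed over, and distances were not taken into account. Around ABCA1, at 0.64, the median was 0.06 and the highest 0.42. Around ABCC5, at -0.47, the median was 0.04 and the lowest -0.41. Around ABCB6, at -0.50, the median was -0.06, and the lowest, at -0.85, was below ABCB6.

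Pseudogenes of the family stood outside the 36 genes, with 8 names in the table. ABCA11P was the most abundant of them, at 2.08 against 1.52 RPKM with 130.0 against 94.2 reads. ABCC6P1 had 2.50 against 12.3 reads and ABCC6P2 5 against 8.63, against 19.5 and 18.0 for ABCC6. The ABCB10 and ABCF2 pseudogenes had at most 1 read each.

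ABCA4 differed in RPKM more than in reads, with a log2 ratio of levels of -0.32 and of reads of -0.11 (95% interval -0.34 to 0.11). Its coding transcript ENST00000370225.3 had 308.4 against 323.0 reads and 1.18 against 1.23 RPKM. Among its other transcripts was ENST00000484388.1, with 0 against 4.67 reads at 0 against 0.399 RPKM.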
